A study of Mus musculus with 14 samples.

Results

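The 40 genes described here code for the glucose carriers, the enzymes of glycolysis, the pyruvate dehydrogenase complex, the citric acid cycle and the malate-aspartate shuttle. They were taken from a fixed list of names, and each was represented by the single-gene probe set whose log2 signal was highest on average. Of the 40 genes, 37 were measured in this way, out of 18193 genes on the array. The measured genes were 16 of 19 of glycolysis and glucose entry, 4 of 4 of pyruvate dehydrogenase, 15 of 15 of the citric acid cycle and 2 of 2 of the malate-aspartate shuttle. Gpi1 and Eno1 were not analysed here. Gapdh had only probe sets shared with other genes, besides control probe sets.

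The samples were 14 single tdTomato+ retinal ganglion cells (RGCs), numbered cell 1 to cell 14, all of 1 group, with 1 Affymetrix array for each cell. They came from dissociated retinas of adult mice of mixed background, the offspring of Parvalbumin-cre mice (129P2/OlaHsd) and Ai9 Tomato mice (C57BL/6 and 129 SV). These strains are those of the labels, while the methods of the study place the Cre line on a mixture of C57BL/6 and 129P2OlaHsd and the reporter on C57BL/6J alone. In such offspring, Cre made under control of the parvalbumin gene turns on a lasting red label, so a labelled cell need not have expressed parvalbumin when it was picked. No condition was compared, no animal was named for any cell and the cells were not replicates of a treatment, so no test was run and each SD is a spread over cells.

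Glycolysis splits glucose into pyruvate in the cytosol and yields ATP without oxygen. Lactate dehydrogenase turns pyruvate into lactate and back, while pyruvate dehydrogenase sends it into the citric acid cycle in the mitochondrial matrix, which feeds electrons to the respiratory chain. The retina is known for making lactate even in the presence of oxygen, and RGCs are known for a high demand for ATP, which their long axons and frequent spikes require.

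A gene was called detected in a cell when its MAS5 signal, a brightness on a linear scale, reached 8 times the median of all probe sets on its array. The thresholds lay between 64.2 in cell 14 and 439.7 in cell 1. The number of genes detected ranged from 2540 in cell 5 to 6849 in cell 12, with a mean of 4589 ± 1312 (SD, n = 14). Of 13 RGC markers measured, 9 to 13 were detected in each cell, with 9 in cells 5, 13 and 14. Rod markers stood at 11 of 14 in cell 3 and 10 in cell 6, against a median of 3 over the 14 cells, and markers of Müller glia reached their highest number, 7 of 13, in cell 6. A signal has meaning only across cells for the same probe set, so levels of different genes are not set against each other.

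Most of these energy genes were found in most cells. Of the 37, 15 were detected in all 14 cells (40.5%), beside 2.64% of all genes. In at least 7 cells, 34 were detected (91.9%), beside 24.8% of all genes. The median was 13 cells for a gene of the list, against 1 cell for all genes. The genes found everywhere were mostly glycolytic: 11 of the 16 glycolytic genes were detected in all 14 cells, against 2 of the 19 genes of pyruvate dehydrogenase and the citric acid cycle. In at least 7 cells, 15 of the 16 and 17 of the 19 were detected. Both shuttle genes were present in all 14 cells. Among the genes found in all cells, Pfkl, Aldoc, Slc2a3 and Got2 depended on the probe set: with probe sets that carry no suffix in their names, they were detected in 0, 0, 1 and 6 cells. No gene of the list was absent from every cell, and only Idh2, Hk2 and Sdhd were detected in fewer than 7 cells. Cells 5 and 13, which had the fewest detected genes, set the first count: without them, 23 of the 37 genes were detected in all the remaining cells. Other genes gain too: of all 479 genes found in exactly 13 cells, 194 were missing only in cell 5 and 87 only in cell 13. The share of all genes detected in the remaining cells was not computed.

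**Figure D1:**
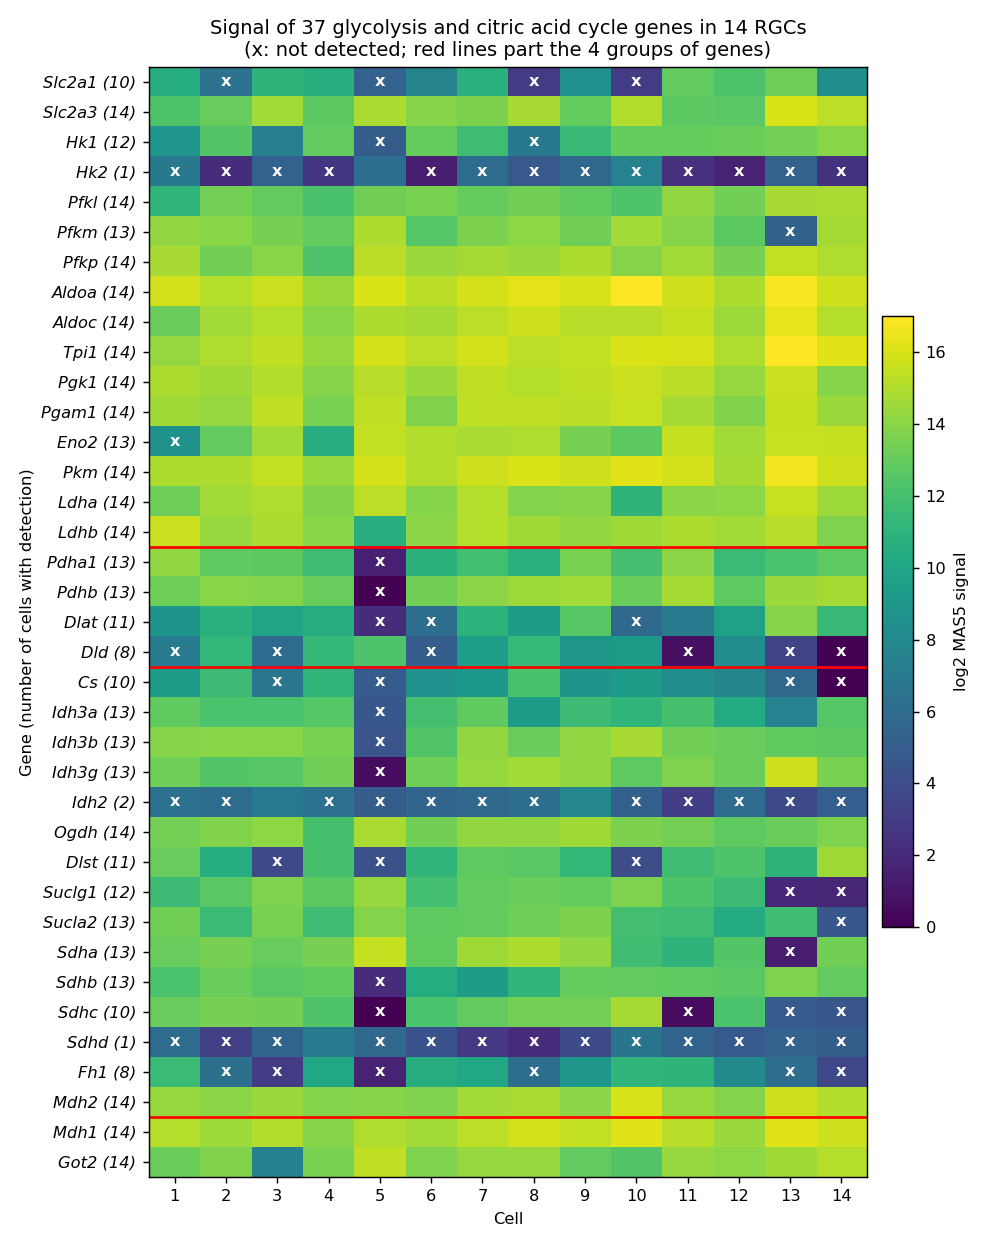
Log2 MAS5 signal of the 37 measured genes (rows, in pathway order, with the count of cells that had the gene in brackets) in the 14 RGCs (columns). A white x marks a signal under 8 times the array median. Red lines part glycolysis, pyruvate dehydrogenase, the citric acid cycle and the shuttle genes. The x marks in the mitochondrial rows gather in cells 5, 13 and 14.

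Glucose enters through facilitative carriers, of which the list of 40 genes held a neuronal and a more general one. Slc2a3 (GLUT3), the high-affinity carrier of neurons, was detected in all 14 cells, from 5016 in cell 1 over a median of 14277 to 66373 in cell 13. A second Slc2a3 probe set was also detected in all 14 cells, and the other 2 in 1 cell each. Slc2a1 (GLUT1), the carrier of the blood-retina barrier and of many other cells, was detected in 10 cells, with a median of 929 over all cells and the highest signal, 9816, again in cell 13. Its signals were 39.9 in cell 5, 82.2 in cell 2, and 7.85 in each of cells 8 and 10. Slc2a3 was thus the only one of the pair detected in cells 2, 5, 8 and 10, where its signals were 8540.0, 29533, 27600.2 and 33752. The 2 carriers did not move together over cells (Pearson r −0.27, Spearman rho −0.30, n = 14 cells that share their preparation and differ in the number of genes detected).

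Hexokinase traps glucose in the cell as glucose 6-phosphate. Hk1, the isoform of brain and most neurons, was detected in 12 cells, with a lowest, median and highest signal of 32.2 (cell 5), 6588 and 16263 (cell 14). In cell 8, Hk1 had 114.6 against a threshold of 114.9, and a second Hk1 probe set was detected there. Hk2, the isoform known from muscle and photoreceptors, was called in cell 5 alone, at 74.2 against a threshold of 65.3. Its signals elsewhere lay between 2.72 in cell 6 and 188 in cell 10, a cell whose threshold was 292, so the cell that passed did not have the highest signal. Hk2, with 1 single-gene probe set, was not detected in cells 3 and 6, the cells with most rod markers. Whether rod material added to the signals of these cells was not tested.

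Phosphofructokinase commits sugar to glycolysis and is built from 3 kinds of subunit. The liver-type Pfkl (2232 in cell 1, median 10445, 29274 in cell 14) and the platelet-type Pfkp (4922 in cell 4, median 24353, 44483 in cell 13) were detected in all 14 cells. The muscle-type Pfkm was detected in 13, from 5823 in cell 6 up to 30049 in cell 5, and had a signal of 38.3 in cell 13. That gap, seen with the only single-gene probe set of Pfkm, separated cell 13 from all others. Cell 13 nevertheless had the highest Pfkp signal of the 14 and a Pfkl signal of 28364. Every cell therefore had at least 2 phosphofructokinase genes, and 13 had all 3.

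Aldolase splits the sugar into triose phosphates. Aldoa, the widespread aldolase, ranged from 22160 in cell 4 over a median of 57768 to 126587 in cell 10. Aldoc, the aldolase of brain, ranged from 8952 in cell 1 over 35999 to 85776 in cell 13. The 2 aldolases were detected in all 14 cells and tended to rise and fall together (r 0.59, rho 0.71, n = 14). Cell 1 stood apart from this, since Aldoa was close to its median there, at 59053, while Aldoc had its lowest signal.

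Tpi1, which interconverts the triose phosphates, was detected in all cells (19965 in cell 1, median 43053, 161621 in cell 13). Pgk1, an X-linked gene whose enzyme makes the first ATP of the pathway, had 15636 in cell 14, a median of 34418 and 51977 in cell 13. Pgam1, which moves the phosphate group of phosphoglycerate, had 12196 in cell 4, a median of 32549.0 and 48184 in cell 10. None of these 3 genes was missed in a single cell.

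Eno2, the neuronal enolase, was detected in 13 cells, with a median signal of 27592 and its highest, 49452, in cell 13. In cell 1 it had 408.5, just under that array's threshold of 439.7, where the lowest signal of the other cells was 1574 in cell 4. Pkm, the pyruvate kinase of neurons, was present in all cells (21719 in cell 4, median 52868, 104654 in cell 13). Cell 13 held the highest signal of 9 of the 14 glycolytic genes detected in it. That cell had few genes detected, and of all 2702 genes detected in it, 37.4% had their highest signal there.

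Gapdh could be followed only through the control probe sets of the array. Its 3' control probe set had signals from 24541 in cell 4 to 157085 in cell 10, with a median of 68625, and was detected in all 14 cells. The ratio of its 3' to its 5' control probe set, which rises when the 5' part of a transcript is copied poorly, was 1.09 in cell 4 and highest in cells 13 and 14, at 1.95 and 2.61. The median ratio was 1.29.

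Lactate dehydrogenase is a tetramer of A subunits (Ldha), which favour making lactate, and B subunits (Ldhb), which favour using it. Both genes were detected in all 14 cells, and each had 1 cell far below the others. The promoters of the pair are shown because the subunits parted in individual cells and because Ldha is a textbook target of hypoxia-inducible factor. The windows are the 250 bases before a transcript start from RefSeq (GRCm38.p6). The motif ACGTG, a form of the core of the hypoxia response element, was searched on both strands. It is in capitals with its reverse complement CACGT. The other form of the core, GCGTG, was not searched, although the Ldhb window holds it in small letters. The palindrome CACGTG, which holds both, counts once on each strand.
Ldha, first window, chr7:46845554-46845803, plus strand: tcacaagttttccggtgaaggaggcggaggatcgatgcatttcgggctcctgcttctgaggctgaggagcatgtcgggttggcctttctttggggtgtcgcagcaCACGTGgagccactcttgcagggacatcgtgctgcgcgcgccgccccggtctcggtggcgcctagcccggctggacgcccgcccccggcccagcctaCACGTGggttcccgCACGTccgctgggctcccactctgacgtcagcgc
Ldhb, chr6:142507958-142508207, minus strand: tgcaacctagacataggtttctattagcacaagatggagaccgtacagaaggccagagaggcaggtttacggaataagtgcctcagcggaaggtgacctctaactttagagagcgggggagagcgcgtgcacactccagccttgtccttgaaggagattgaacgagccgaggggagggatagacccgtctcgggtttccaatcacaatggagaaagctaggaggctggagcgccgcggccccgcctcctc

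The Ldha window held 5 matches of ACGTG, counted on both strands. A second Ldha window (chr7:46846832-46847081, plus strand) and the Ldhb window held 0. Matches of GCGTG were not counted in any window. At least 1 match stood in a window of 13 of the 37 listed genes that had one in the table (35.1%), against 18.5% of all 27025 genes and 16.6% of all 32851 windows. By pathway, these were 8 of 18 glycolytic genes and 4 of 17 genes of pyruvate dehydrogenase and the cycle. Genes with several starts have several windows, and a match is a description of the letters and not a binding site. Slc2a3, Idh3a and Sdhc were not matched to a window.

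Ldha ranged from 2169.5 in cell 10 over a median of 17283 to 48359 in cell 13, and its signals in the other 13 cells were 9609 or more. Ldhb ranged from 1687 in cell 5 over a median of 24357 to 50104.5 in cell 1, and its signals in the other 13 cells were 13271 or more. Cell 10 was thus low in Ldha and near the median in Ldhb, and cell 5 was low in Ldhb while its Ldha, at 41092, was second only to that of cell 13. All 4 single-gene probe sets of Ldhb had their lowest signal in cell 5, at 842 to 1687 there. Ldha had only 1 single-gene probe set, so its low signal in cell 10 had no second measurement. The difference log2 Ldha minus log2 Ldhb, set to 0 at its median over cells, ran from −3.28 in cell 10 to 4.75 in cell 5, with an SD of 1.77. Cell 1, with the highest Ldhb signal, was next at −2.21, and the other 11 cells lay between −0.70 and 0.96. The pair did not move together (r −0.23, rho 0.06, n = 14, and r 0.10 without cell 5).

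**Figure D2:**
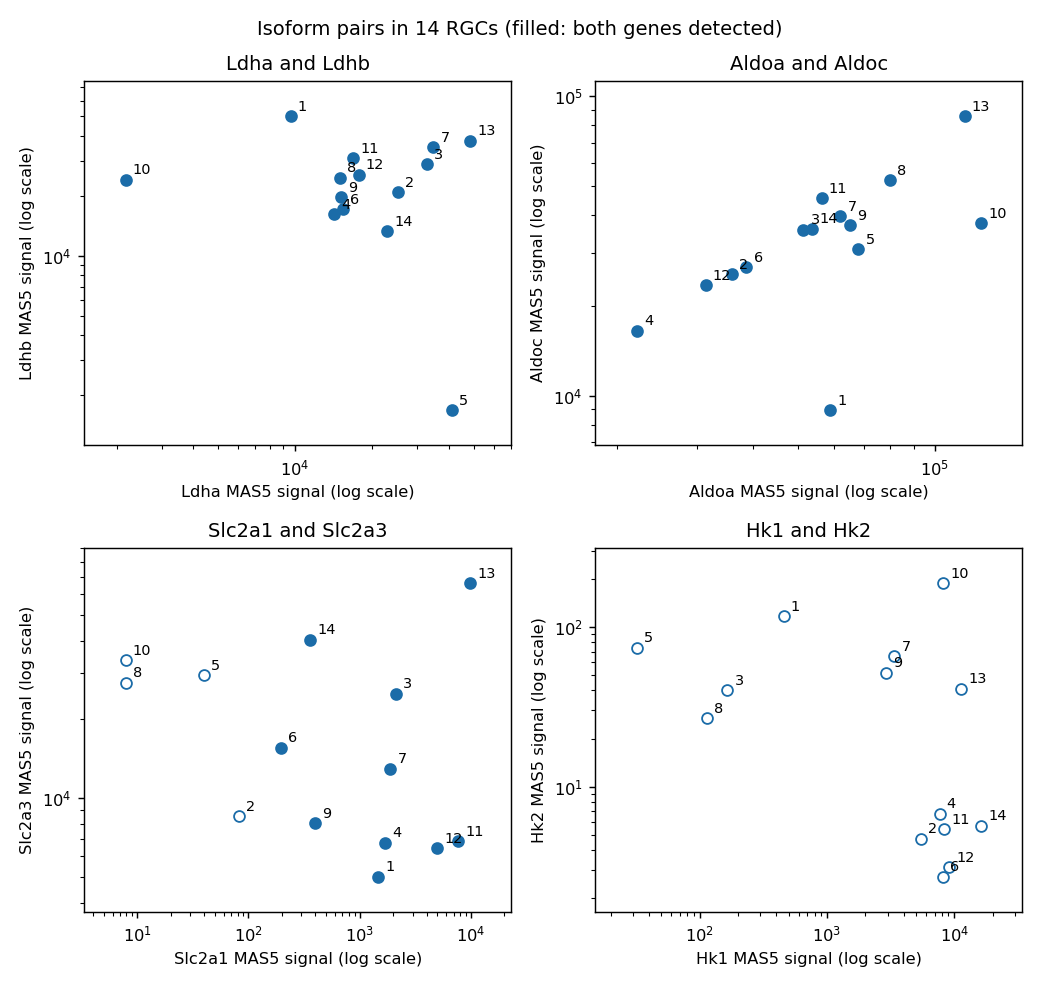
MAS5 signals of 4 isoform pairs in the 14 RGCs, both axes on a log scale, with cell numbers beside the points. Filled points are cells in which both genes were detected. Cells 10 and 5 lie away from the rest in the Ldha and Ldhb panel, Slc2a1 was not detected in cells 2, 5, 8 and 10, and no cell had both Hk1 and Hk2.

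Pyruvate dehydrogenase joins glycolysis to the citric acid cycle through 3 catalytic parts. Both genes of its E1 part, the X-linked Pdha1 and Pdhb, were detected in 13 cells and missed in the same one, cell 5. Pdha1 had 2.82 in cell 5 and 1738 to 18119 in the others, with a median of 4296 over all cells. Pdhb had 0.88 in cell 5 and 6913 to 26924 in the others, with a median of 15608. Signals between these extremes did not occur, so cell 5 was set apart from the rest by a wide gap for each gene.

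The other parts of the complex were found less evenly. Dlat, the E2 core, was detected in 11 cells, with a lowest, median and highest signal of 4.63 (cell 5), 923 and 15256 (cell 13), and not in cells 5, 6 and 10. A second Dlat probe set was detected in cell 6. Dld, the E3 subunit that several dehydrogenase complexes share, was detected in 8 cells (0.61 in cell 14, median 408, 4804 in cell 5). All 4 genes were detected together in cells 2, 4, 7, 8, 9 and 12.

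Entry into the cycle and its first oxidation also had a few cells without detection, but with a wide gap only for some genes. Cs, citrate synthase, was detected in 10 cells and not in 3, 5, 13 and 14, with 0.99 in cell 14, a median of 421 and 4469 in cell 8. No wide gap parted its calls, since cell 3 had 100 against a threshold of 122 and detected signals began at 215 in cell 12. The 3 subunits of the NAD-dependent isocitrate dehydrogenase, the main enzyme of this step in the cycle, were each detected in the same 13 cells and missed in cell 5. There, Idh3a had 26.1, Idh3b 22.1 and the X-linked Idh3g 1.46. In the other cells, Idh3a had 187 to 7429 (median over all cells 4128), Idh3b 5340 to 28442.5 (median 11616) and Idh3g 5588 to 52410.5 (median 10172). Only Idh3a reached down towards the threshold, in cell 13, in which Idh3g had its highest signal.

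Correlations among these subunits rested on cell 5. Idh3b and Idh3g had r 0.85 over the 14 cells and −0.33 without cell 5, and Pdha1 and Pdhb had 0.89 and 0.33. Idh2, the mitochondrial NADP-dependent isoform, was detected only in cells 3 and 9, at 132 and 234, and its signals elsewhere were 81.6 or less. A second Idh2 probe set was also detected in 2 cells, but in cells 4 and 6, so the 2 probe sets named no cell in common.

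Ogdh, the E1 subunit of the oxoglutarate dehydrogenase complex, was 1 of the 2 genes of the cycle detected in all cells (4290.5 in cell 4, median 13099, 30046 in cell 5). Dlst, its E2 subunit, was detected in 11 cells and not in 3, 5 and 10, where its signals were 18.5 or less against 1461 or more elsewhere (median over all cells 3029, highest 24252 in cell 14). Together with Dld, the whole complex was detected in 6 cells. These were the same 6 in which all of pyruvate dehydrogenase was found, cells 2, 4, 7, 8, 9 and 12, and the 2 complexes share Dld.

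Succinyl-CoA synthetase, which makes ATP or GTP inside the cycle, lost signal in other cells. Suclg1, its common alpha subunit, was detected in 12 cells, from 3240 in cell 12 up to 21051 in cell 5 (median over all cells 6553), and had 3.64 and 3.51 in cells 13 and 14. Sucla2, the ATP-forming beta subunit, was detected in 13 cells, from 1440 in cell 12 up to 14547 in cell 5 (median 5424), and had 24.2 in cell 14. Both subunits were thus found in 12 cells, 1 in cell 13 and none in cell 14. Suclg1 had only 1 single-gene probe set.

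Succinate dehydrogenase belongs to the cycle and is also complex II of the respiratory chain. Sdha, the flavoprotein, was detected in 13 cells, from 2156 up to 45546 in cell 5 (median over all cells 9485), and had 2.62 in cell 13. Sdhb, the iron-sulfur subunit, was detected in 13 cells, from 641 up to 13615 in cell 13 (median 6875), and had 4.51 in cell 5. The membrane anchor Sdhc was detected in 10 cells, from 4565 up to 27399 in cell 10 (median 6479), and not in cells 5, 11, 13 and 14, where it had 29.7 or less.

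Sdhd, the second membrane anchor, was called in cell 4 alone, at 124, with 4.40 to 95.9 in the other 13 cells. Its second probe set was also detected in cell 4 only. Sdha, Sdhb and Sdhc were found together in 10 cells, and all 4 subunits only in cell 4. Cells 5 and 13 each lost a different catalytic subunit, Sdhb in cell 5 and Sdha in cell 13, and each held the highest signal of the other one.

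**Figure D3:**
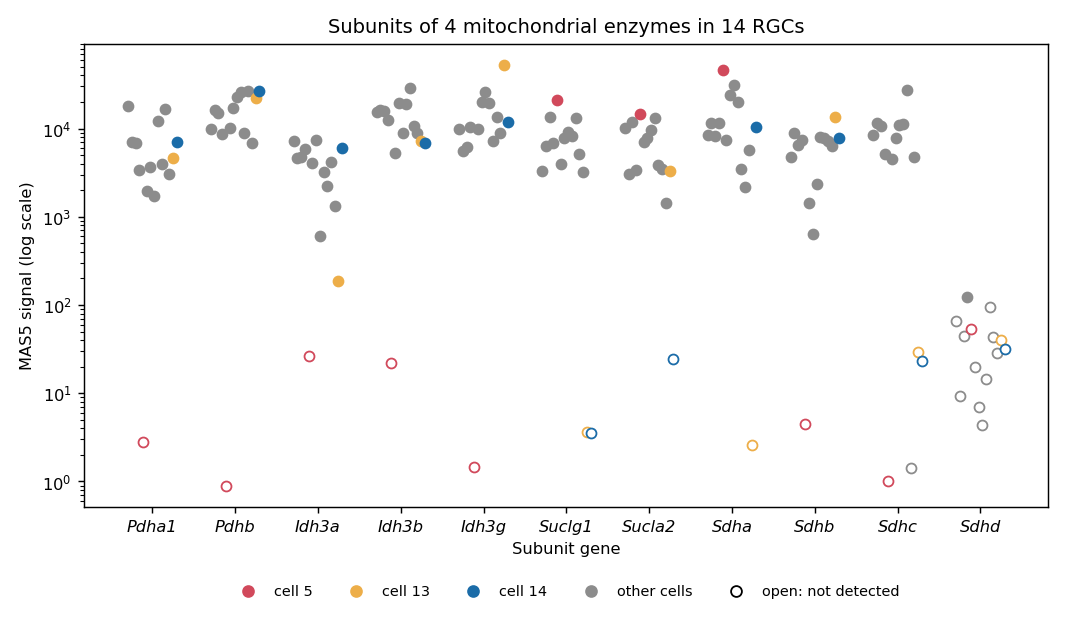
MAS5 signal (log scale) of the subunit genes of pyruvate dehydrogenase E1, NAD-dependent isocitrate dehydrogenase, succinyl-CoA synthetase and succinate dehydrogenase in each of the 14 RGCs, placed from cell 1 to cell 14 within a gene. Open points were not detected. Except for Sdhd, detected points lie at 187 or above and undetected points at 29.7 or less.

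The last steps of the cycle also differed in detection. Fh1, fumarase, was detected in 8 cells, with a lowest, median and highest signal of 3.15 (cell 5), 396 and 3019 (cell 1), and was missed in cells 2, 3, 5, 8, 13 and 14. Mdh2, the mitochondrial malate dehydrogenase, was the other gene of the cycle detected in all cells (13597 in cell 6, median 21342, 63173 in cell 10). Its cytosolic counterpart in the malate-aspartate shuttle, Mdh1, was likewise detected in all (15284 in cell 4, median 36494, 78187 in cell 10).

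The 2 malate dehydrogenases had the smallest SD of the log2 difference among the isoform pairs compared, although not with the mean of all probe sets of a gene, under which it was 0.67 and that of the aldolases 0.52. They had r 0.88 and rho 0.90 over the 14 cells, and r stayed at 0.88 without cells 4 and 10, the 2 farthest from the median. Their log2 difference had an SD of 0.33, against 0.66 for the aldolases, 1.77 for the lactate dehydrogenases and 3.27 for the glucose carriers. Got2, the mitochondrial aspartate aminotransferase of the shuttle, was detected in all 14 cells with a median of 15747 and a highest signal of 42888 in cell 5. Its signal in cell 3 was 177, above that array's threshold of 122 but far below the 5537 or more of the other cells.

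Counted by cell, the 2 arms of the pathway differed most where few genes were detected. Glycolytic genes numbered 13 to 15 of 16 in every cell, or 90.6% ± 4.07 (SD, n = 14). Genes of pyruvate dehydrogenase and the cycle numbered 6 of 19 in cell 5, 11 in cells 13 and 14, and up to 18 in cells 4 and 9, or 77.1% ± 17.3. Over the whole list, 22 genes were found in cell 5, 27 in cell 13, 28 in cell 14 and 35 in cells 4 and 9, with a mean of 31.1 ± 3.51.

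A step was counted as detected where at least 1 of its genes was. By this count, every one of the 9 measured glycolytic steps was detected in 12 cells. Cell 1 lacked only the enolase step, which was counted from Eno2 alone, and cell 8 only hexokinase, both narrowly. Cell 5 also passed narrowly, since its hexokinase step rested on Hk2 alone, at 74.2 against a threshold of 65.3. In cell 3 the step rested on Hk1 at 166 against 122. Every one of the 7 measured steps of the cycle was detected in 8 cells, of which 4 (cells 4, 7, 9 and 12) held all 3 genes of the oxoglutarate dehydrogenase complex. Fumarase was missing in the other 6 cells (2, 3, 5, 8, 13 and 14), and citrate synthase in 4 of these (3, 5, 13 and 14). Cells 2 and 8 lacked only fumarase, and by less than a factor of 2. Fh1 had 77.1 against a threshold of 119 in cell 2 and 70.5 against 115 in cell 8. It had 68.5 against 108 in cell 13, but 12.1 or less in cells 3, 5 and 14. Cs had 100 against 122 in cell 3. Aconitase was not among the measured steps of the cycle. Phosphoglucose isomerase (Gpi1) and glyceraldehyde-3-phosphate dehydrogenase (Gapdh) were not among those of glycolysis, and Eno1 did not enter the enolase step.

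Cell 5 was the clearest case. It was the only cell to lack 6 of the 10 genes that were found in exactly 13 cells (Pdha1, Pdhb, Idh3a, Idh3b, Idh3g and Sdhb), and the same was true of 194 of all 479 genes found in 13 cells (40.5%). The cell did not lack all of the cycle. Dld, Ogdh, Suclg1, Sucla2, Sdha and Mdh2 were detected, and the first 5 of these 6 had their highest signal of the 14 cells there, while 38.1% of all 2540 genes detected in cell 5 did. Its glycolytic genes were detected in 14 of 16 cases, with Hk2 only narrowly so, the same number as in cells 1, 2, 10 and 13.

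**Figure D4:**
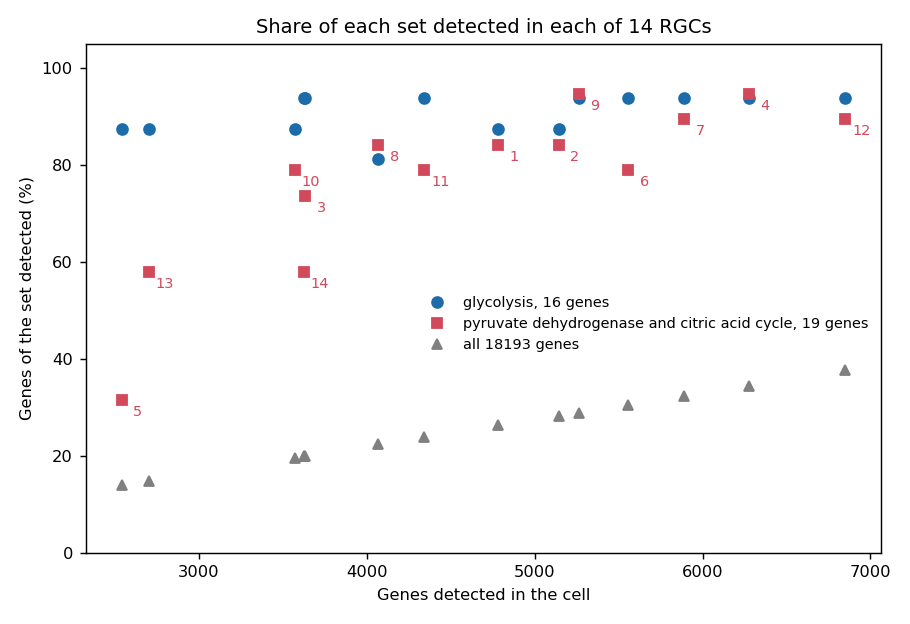
Percent of 16 glycolytic genes (circles), of 19 genes of pyruvate dehydrogenase and the citric acid cycle (squares, with cell numbers) and of all 18193 genes (triangles) detected in each of the 14 RGCs, against the number of genes detected in the cell. Circles stay between 81.2% and 93.8%, and squares run from 31.6% in cell 5 to 94.7% in cells 4 and 9.

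The number of genes of the list detected in a cell followed the number of all genes detected (r 0.84, rho 0.92, n = 14, and r 0.87 without cells 5 and 12, the 2 farthest from the median). After quantile normalization between arrays, r was 0.41. For pyruvate dehydrogenase and the cycle r was 0.80, and for glycolysis 0.47, over counts that vary by only 2 genes. The members are themselves among all genes, and the points share library preparation and depth. The RGC markers were also fewest in cells 5, 13 and 14, with 9 of 13. The Gapdh ratio did not follow the counts in every cell. It was highest in cells 13 and 14, but 1.21 in cell 5 and 1.47 in cell 12, the cell with the most genes detected. The part of the markers and of the ratio in the result was not tested.

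Signals moved in the other direction. The median log2 signal of the 15 genes of the list detected in all cells fell with the number of genes detected (r −0.78, n = 14), as did that of the 480 genes of the whole array detected in all cells (r −0.89). The difference between the 2 medians had r 0.00011 over the 14 cells, but −0.26 without cell 5, −0.28 without cells 5 and 13 and −0.44 without cells 5, 11, 13 and 14.

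Within the 15 genes, the SD of log2 signal was smallest for Pgk1 (0.57), Pkm (0.64), Mdh1 (0.67), Aldoa (0.69) and Mdh2 (0.69). It was largest for Got2 (1.92), Slc2a3 (1.19), Ldhb (1.16), Ldha (1.11) and Pfkl (0.996). These values are of the chosen probe sets. Both further Pgk1 probe sets, also detected in all 14 cells, had r of only 0.37 and 0.35 with the chosen one. The median SD was 0.77 for the 15 genes, against 1.15 for the 480 genes. With each cell centred on the median of those 480 genes, these values were 0.61 and 1.06, and Pkm was then the steadiest gene, at 0.39.

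Genes of the list did not move as 1 block over cells. Among the 34 genes detected in at least 7 cells, the median r over 561 pairs was −0.01, against 0.08 for all 4507 such genes. It was 0.19 within glycolysis, 0.22 within pyruvate dehydrogenase and the cycle, and −0.10 between the 2 sets. With each cell centred on the 480 genes, these 3 values were 0.09, 0.39 and 0.07, that over all pairs of the list was 0.14 and that of the 4507 genes 0.19, so the sign between the sets and over the list turned with the scaling. Among the 15 genes detected everywhere it was 0.44, against 0.11 for the 480 genes, and after centring 0.22 and −0.01. The pairs with the closest likeness that did not rest on cell 5 were Aldoa with Mdh1 (r 0.95, and 0.97 without cell 5) and Aldoa with Pkm (r 0.92 with and without it).

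Further genes of the pathway came from lists chosen with earlier results of these data known. They had a median of 4 cells, against 13 for the 37 genes above and 1 for all genes. Of 67 measured, 2 were detected in all 14 cells (2.99%, beside 2.64% of all genes) and 25 in at least 7 (37.3%, beside 24.8%). In no cell were 19 detected, beside 41.8% of all genes. Among 15 other isoforms of the same steps, 3 reached 7 cells: the enolase Eno3 (9 cells) and the carriers Slc2a6 and Slc2a8 (7 each). Another 8 were found in no cell, among them the testis isoforms Pgk2, Ldhc and Pdha2 and the insulin-regulated carrier Slc2a4. Their highest signals were 82.0, 131, 82.7 and 44.7.

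Among 13 regulators, Hif1a, the oxygen-regulated subunit of hypoxia-inducible factor, was detected in 13 cells (32.5 in cell 5, median 6349, highest 40040.5), and the pyruvate dehydrogenase phosphatase Pdp1 in 12. The kinases that switch pyruvate dehydrogenase off were detected in 10 cells (Pdk2), 7 (Pdk1), 6 (Pdk3) and 0 (Pdk4). Pfkfb3, which makes the activator of phosphofructokinase, was detected in 4 cells, and Ppargc1a, a coactivator of mitochondrial genes, in 3. Suclg2, the GTP-forming counterpart of Sucla2, was detected in 0 cells, with a highest signal of 87.8, and Slc25a12, the aspartate-glutamate carrier of the shuttle, in 12.

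For lactate and pyruvate, Mpc1, a subunit of the mitochondrial pyruvate carrier, was detected in all 14 cells (lowest 1416, median 5170.0, highest 14390.1). Bsg, the chaperone of the monocarboxylate carriers, was detected in 13 cells. The monocarboxylate carriers themselves were found in 5 cells (Slc16a3), 2 cells (Slc16a1) and 0 cells (Slc16a7, highest signal 62.8). Got1, the cytosolic aspartate aminotransferase, was the other gene of these lists found in all 14 cells (median 15339).

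Most calls lay far from the threshold. Over 37 genes and 14 cells there were 518 values, of which 436 were detected and 82 were not. Of the detected values, 397 were at least 10 times the threshold, and 29 of the undetected ones were more than 10 times below it. Within 2 times of the threshold lay 31 values. Of the 82 undetected values, 34 belonged to cells 5, 13 and 14.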

How the data were processed

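Signal intensities of 14 arrays, 1 for each cell, were used. Per the labels and the study's methods, RNA was copied from an oligo-dT primer and amplified by PCR, which favours 3' ends and leaves weak transcripts to chance, and the authors computed the deposited intensity values on a linear scale with MAS5 (which version was not given in the sources used here). The study names more than 1 array facility, but does not tie any of the 14 arrays to one. No scanner files or detection calls entered the work.

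Of 45101 probe sets, 64 were controls. Of the 45037 others, 34945 had 1 gene symbol in the platform annotation, 932 had several and 9160 were unnamed here. Of those with 1 symbol, 34741 matched a RefSeq gene table (GRCm38.p6), which updated symbols. Where a gene had several single-gene probe sets, the one with the highest average log2 signal was kept. Detection needed 8 times the array median, which 0 of 378 values of 27 control probe sets of other organisms reached. An alternative threshold set from control probe sets was higher in every cell, from 12.7 times the array median in cell 6 to 39.9 times in cell 5. With it, every measured glycolytic step was detected in 10 cells and every measured cycle step in 5. Correlations used log2(signal + 32). Precision is limited by the number of arrays.

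Every listed gene was to be accounted for, with isoform families, complexes and genes found in under 14 cells described in full. Members and lists were chosen with earlier results of these data known. Alternatives changed the threshold, probe set, pseudocount, scaling and cells. Python 3.11.15, pandas 2.3.3 and scipy 1.17.1 were used.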

Additional observations from a re-analysis of the deposited data

How the results depend on the processing

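Of the main results under alternatives, 52 values stayed within a set tolerance, 11 moved beyond it and 5 changed sign. Counts within the tolerance could still shift. The 15 genes detected in all 14 cells became 10 with the mean of all probe sets of a gene. Cells with every measured cycle step, 8 in the main setting, numbered 5 to 11 under the alternatives within the tolerance. The 15 genes detected in all 14 cells became 5 with probe sets without a suffix in their names, 23 without cells 5 and 13, and 26 without cells 5, 11, 13 and 14. The matching counts of all genes without these cells were not computed. With probe sets without a suffix, which only 27 of the 37 genes have, 20 genes were detected in at least 7 cells in place of 34. The mean share detected per cell was then 66.4% in place of 84.2%, and 0 cells in place of 12 had every measured glycolytic step. The mean share was 73.4% with the mean of all probe sets of a gene. Every measured glycolytic step was detected in 14 cells at 4 times the array median and in 14 after quantile normalization. Every measured step of the cycle was detected in 1 cell, in place of 8, at a fixed signal of 1000. The correlation of genes of the list with all genes detected was 0.41 after quantile normalization, in place of 0.84. The median pairwise r of −0.01 changed sign to 0.0061 with a pseudocount of 100, 0.0796 after quantile normalization, 0.0207 without cells 5 and 13, 0.0865 without cells 5, 11, 13 and 14, and 0.14 with cells centred on the genes detected everywhere. The last alternative, and Gapdh added through its 3' control probe set, were chosen after seeing the data. The cause of these changes was not tested. For single genes and isoform pairs, 334 values stayed within the tolerance and 47 did not. Hk2, Idh2 and Sdhd were detected in 0 cells at 16 times the array median, and likewise with the threshold from control probe sets. A pseudocount does not enter the correlation of gene counts, so that alternative was not run. No paired analysis was possible because all cells formed 1 group. A gene without signal in a single amplified cell may still have been expressed there.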

Other observations

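Genes of the routes that leave glycolysis were found unevenly. Of 16 measured genes of gluconeogenesis, the pentose phosphate pathway and glycogen, 7 were detected in at least 7 cells (43.8%, beside 24.8% of all genes) and 5 in none (all genes: 41.8%). The pentose phosphate enzymes Tkt (12 cells, median signal 5565), Pgd (10 cells, median 1424) and Taldo1 (9 cells, median 1044) were among the 7. The gluconeogenic phosphatases Fbp1, Fbp2 and G6pc were detected in 0 cells, with highest signals of 126, 174 and 18.9, while G6pc3, the widely expressed glucose 6-phosphatase, was detected in 13 cells. Pygb, the brain glycogen phosphorylase, was detected in 8 cells, Pygm, the muscle form, in 3, and Pygl, the liver form, in 0.

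The 37 genes had 55 further single-gene probe sets. Of these, 28, belonging to 19 genes, differed from the chosen one in their calls in at least 4 cells, and 12 of the 28 were detected in no cell, including further probe sets of Aldoc, Pdhb, Pfkl, Dld and Sdha. The highest median signal of the 28 was 324. The other 27 had a median r of 0.96 with the chosen probe set over the 14 cells, and a lowest r of 0.25, for an Aldoa probe set. Probe sets detected in all 14 cells also had low r for Pgk1 (0.37 and 0.35) and Pfkl (0.42). Of the 82 undetected values, 4 had another probe set of the gene detected in that cell, for Hk1 in cell 8, Dlat in cell 6 and Idh2 in cells 4 and 6.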
